A study of Mus musculus with 14 samples.

Results

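A mouse stem cell line reverted from the primed to the naive state was compared with epiblast stem cells (EpiSC), the primed cells, by RNA-seq. The reverted line (rES) was sampled at passage 6. The comparison was defined by the sample labels alone, and holds 4 of the 14 libraries and 2 of the 7 groups of the study, with 2 libraries in each group. Reverted cells carry the genotype label CD1-deltaTSIX/JF1 and are described only as reverted from EpiSC. They were kept after passage 3 in LIF, serum replacement and 25 µM MM401, which inhibits Mll1, a methyltransferase of histones encoded by Kmt2a. The EpiSC libraries, from blastocyst-derived cells, have the genotype label CD1/JF1, so the EpiSC sequenced here are not shown to be the parents of the reverted line. They were grown in Knockout DMEM with serum replacement and 10 ng/ml bFGF. Genotype label, line, medium, inhibitor and passage all differ between the groups and cannot be told apart in the libraries used here. Other groups are used here only for position. They are embryonic stem cells (ESC, CD1/JF1, grown with LIF on feeder cells), EpiSC (CD1/JF1) held in LIF medium with 100 µM MM401 for 3 days (day 3) or 6 days (P2, passage 2), and the reverted line at passage 30 with and without MM401.

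Naive pluripotent cells resemble the epiblast of the blastocyst before implantation, and primed cells the epiblast after implantation. Mouse ESC hold the naive state with LIF, which acts through the receptor subunits Lifr and Il6st and the transcription factor Stat3. EpiSC depend on FGF and on activin or Nodal signalling, and express genes of the early germ layers. Both states share the core factors Pou5f1 and Sox2, while factors such as Klf4, Tfcp2l1, Esrrb and Tbx3 mark the naive state. Mll1 methylates lysine 4 of histone H3 within a complex that holds Wdr5, Rbbp5, Ash2l and Dpy30.

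Passage 6 libraries held 20831588 and 23045854 counts and EpiSC libraries 22404011 and 22170982, so depth was close to equal in the comparison. The ribosomal RNA precursor Rn45s took 0.4086% and 0.3905% of counts at passage 6 and 0.4352% and 0.3501% in EpiSC. Scatter between the duplicates was 1.353 times that of counting error at passage 6, as a chi-square divided by its degrees of freedom, and 1.536 times in EpiSC, and above 3 times in the day 3, P2 and passage 30 groups. Levels below are CPM, counts scaled to library size with TMM factors, given for replicate 1 and then replicate 2, and differences are log2 fold changes of passage 6 over EpiSC with their standard error (SE). Every adjusted p is from edgeR's quasi-likelihood test with Benjamini-Hochberg adjustment over the 16247 genes tested. Rose, fell, higher and lower are used for genes with an adjusted p under 0.05. The labels name no separate culture beyond the words biological duplicates, so p-values speak only for the spread among the libraries at hand. In data simulated for this comparison, 84% of genes with a true 2-fold change and 96% with a true 4-fold change were called. Few genes were changed there, whereas most were called here, so these rates need not hold for the data.

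Most of the measured transcriptome differed between reverted cells at passage 6 and EpiSC. Of 16247 genes, 6283 (38.7%) were higher and 5700 (35.1%) lower, which is 73.8% in all. Changes of at least 2-fold numbered 2509 upward (15.4%) and 2148 downward (13.2%). The median log2 fold change over all genes was 0.037. With total counts in place of TMM scaling that median was -0.0889 and the calls were 5297 higher and 6762 lower. Genes whose rise is smaller than the distance between those medians can therefore change sign with the scaling. Because nearly 3 in 4 genes were called, a list with many called genes is not in itself unusual, and the direction and size of its changes are given beside the shares above.

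**Figure D1:**
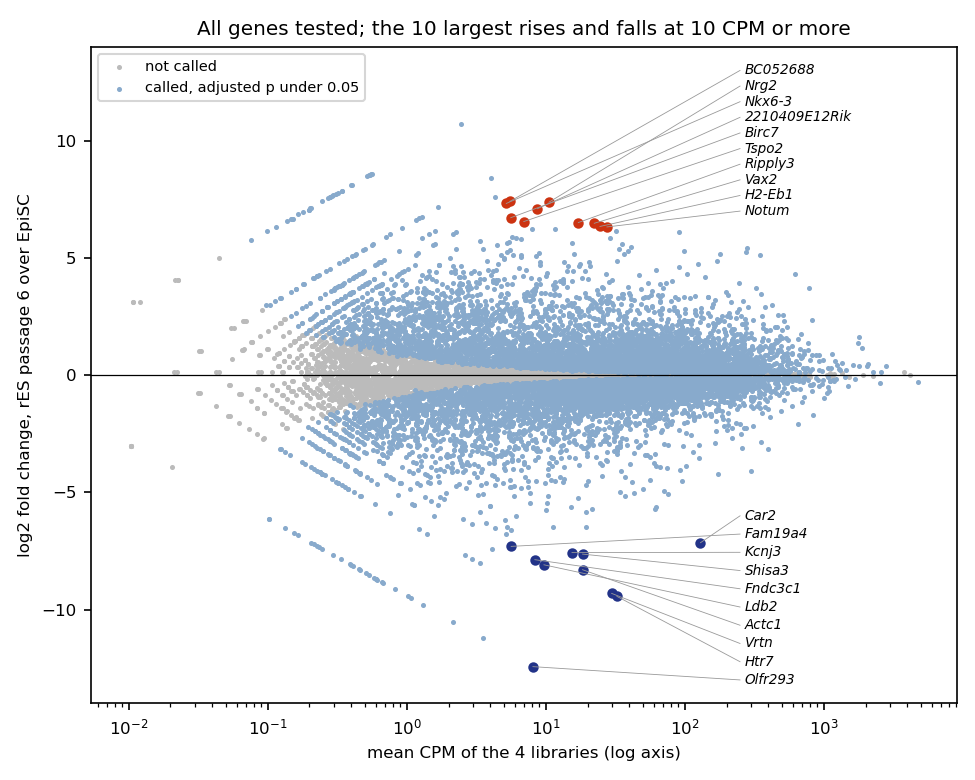
Log2 fold change of passage 6 over EpiSC (vertical axis) against the mean CPM of the 4 libraries (horizontal log axis) for the genes tested with a count in these libraries, blue where called and grey where not. The labelled points are the 10 largest called rises (red) and falls (dark blue) among genes that reached 10 CPM in a group; lines of points at low CPM are genes with few or no counts in 1 group, where the fitted fold depends on the prior count.

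The largest rises among genes that reached 10 CPM in a group were in genes almost silent in EpiSC. Nrg2, a neuregulin ligand of ErbB receptors, stood at 21.4 and 20.6 CPM at passage 6 and 0.0816 and 0.165 CPM in EpiSC, a log2 fold change of 7.38 ± 0.24 (edgeR adjusted p = 5.5e-27). The homeobox gene Vax2 stood at 43.4 and 45.1 CPM against 0.408 and 0.578 CPM, and Ripply3, a transcriptional co-repressor, at 34.9 and 33 CPM against 0.408 and 0.33 CPM. Each of these genes was present in both reverted libraries and below 1 CPM in both EpiSC libraries. Notum, a secreted enzyme that inactivates Wnt proteins, rose from 0.734 and 0.619 CPM to 56 and 53 CPM (6.32 ± 0.13). The other large rises were 2210409E12Rik (7.10 ± 0.26), Birc7 (6.72 ± 0.29), Tspo2 (6.55 ± 0.34), the MHC class II gene H2-Eb1 (6.35 ± 0.14), BC052688 and the homeobox gene Nkx6-3. BC052688 had 483 counts at passage 6 and 3 in EpiSC, a ratio of 178 with a counting interval of 60.7 to 868. Nkx6-3 had 454 counts against 3, a ratio of 168 (counting interval 57.0 to 817). Tspo2 was at 0.0452 and 0.0483 CPM in ESC, and the other 9 genes ranged there from a mean of 0.560 CPM (BC052688) to 30.5 CPM (Notum).

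The largest falls removed transcripts that EpiSC held at moderate levels. Olfr293, an olfactory receptor gene, had 789 counts in EpiSC (16.5 and 15.9 CPM) and 0 at passage 6, which is at least 237-fold lower against a floor of 3 counts over the group. Htr7, a serotonin receptor, fell from 66.5 and 63.5 CPM to 0.0958 and 0.0866 CPM (-9.43 ± 0.27). Vrtn, a gene of vertebral patterning, fell from 59 and 60.1 CPM to 0.0958 and 0.0866 CPM (-9.31 ± 0.22). These genes were close to silent in both reverted libraries, and the groups did not overlap. Car2, a carbonic anhydrase, fell from 259 and 257 CPM to 1.87 and 1.78 CPM (-7.15 ± 0.09, edgeR adjusted p = 1.4e-40). Cardiac actin, Actc1, fell by 8.30 on the log2 scale, the potassium channel gene Kcnj3 by 7.57 and Shisa3 by 7.63. Ldb2, Fndc3c1 and Fam19a4 had 3 counts each at passage 6 against 944, 811 and 547 in EpiSC, which are ratios of 284, 244 and 164.

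Of the gene lists, those of the naive state and the germ line had the highest medians and those of the neuroectoderm, the X inactivation centre (a list of 5 genes) and the primed state the lowest. The lists came from general knowledge of the field but were chosen with earlier results of these data known. They are set out in the plot of gene lists.

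**Figure D2:**
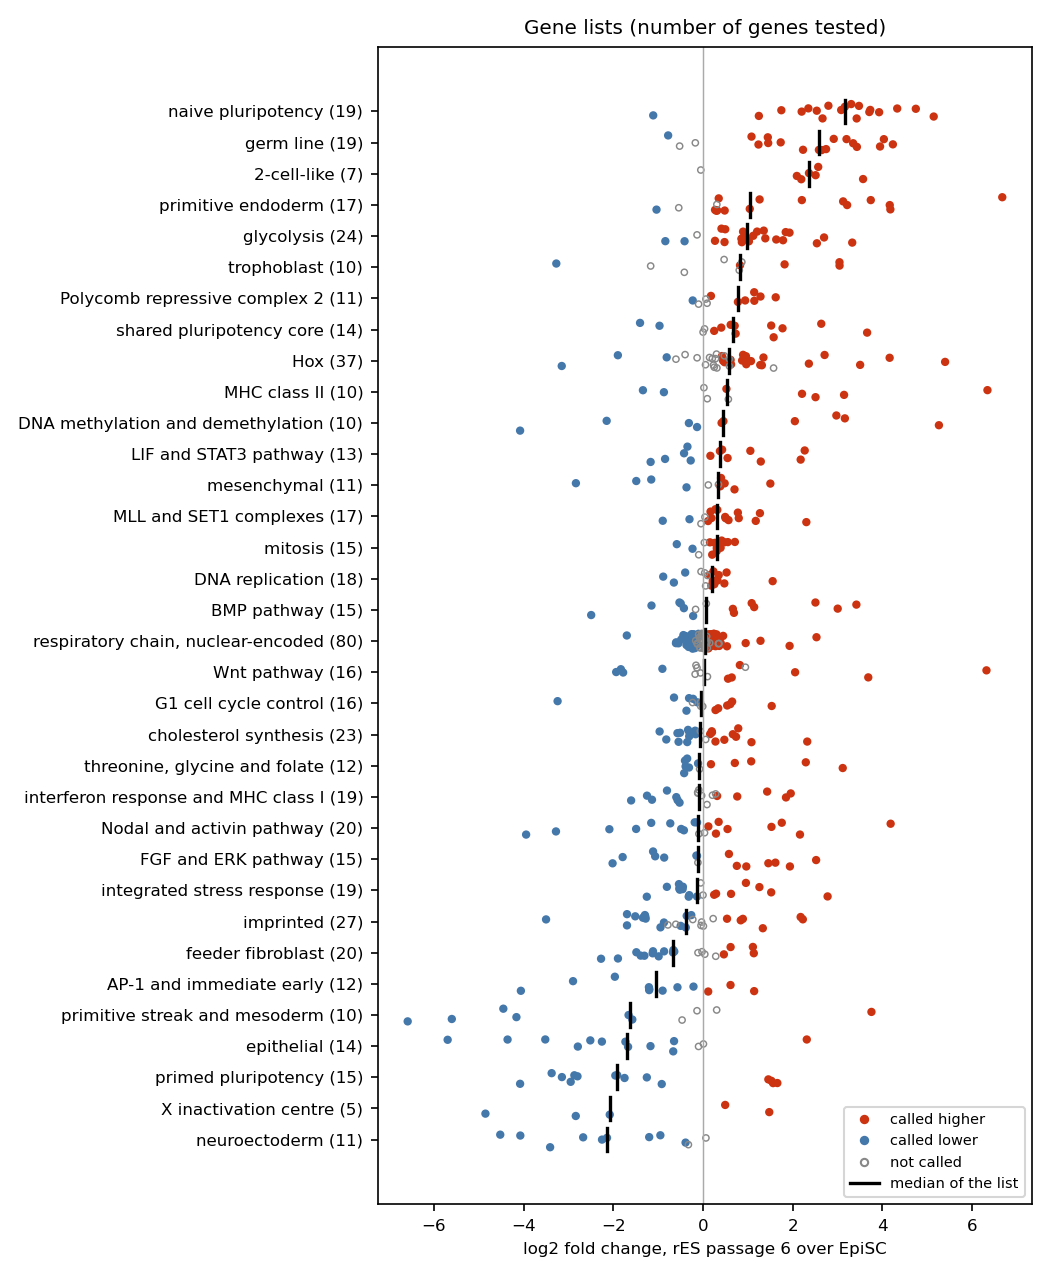
Log2 fold change of passage 6 over EpiSC for each tested gene of the lists, with the number of genes tested in brackets; red points are called higher, blue called lower, open grey not called, and the black bar is the median of the list. Naive pluripotency has the highest median (3.17) and neuroectoderm the lowest (-2.14), against 0.037 for all genes.

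Naive pluripotency genes were higher in reverted cells almost throughout. Of 19 genes tested, 18 rose and 1 fell, with a median log2 fold change of 3.17. Tfcp2l1, a transcription factor of the LIF-dependent naive network, stood at 1176 and 1189 CPM at passage 6 against 57.8 and 59.6 CPM in EpiSC. Tbx3, another factor downstream of LIF, stood at 689 and 676 CPM against 19.6 and 18.9 CPM, a log2 fold change of 5.15 ± 0.06 (edgeR adjusted p = 2.7e-40). Klf4, a zinc finger factor activated by Stat3, stood at 654 and 648 CPM against 60.3 and 56.5 CPM (3.48 ± 0.04). For each of the 3 genes both reverted libraries lay far above both EpiSC libraries. Tcl1, an activator of Akt signalling, rose by 4.75 ± 0.06, the nuclear receptor gene Nr0b1 by 3.93 ± 0.05, the adhesion gene Jam2 by 3.73 ± 0.04, Prdm14 by 3.31 ± 0.05 and Esrrb by 1.75 ± 0.03. In bulk RNA, fewer cells of a type and less RNA per cell cannot be told apart.

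The naive genes did not move together toward the ESC level. Klf4, at 182 and 180.0 CPM in ESC, was 1.85 ± 0.04 higher on the log2 scale at passage 6 than in ESC, and Tbx3 (271 and 269 CPM in ESC) was 1.34 ± 0.04 higher. Zfp42 (Rex1), a widely used naive marker, rose from 20.2 and 17.9 CPM in EpiSC to 88.8 and 86.4 CPM, but lay below the 271 and 272 CPM of ESC (log2 fold change against ESC -1.63 ± 0.04, edgeR adjusted p = 1.2e-29). Dppa3 (Stella), a maternal factor that protects DNA methylation in the early embryo, was the 1 naive gene that fell. It stood at 5.03 and 3.12 CPM at passage 6, 9.46 and 7.97 CPM in EpiSC and 17.6 and 18.7 CPM in ESC, so the reverted libraries were the lowest of the 3 groups. Against ESC, 13 of the 19 naive genes were higher at passage 6 and 6 lower, where the shares over all genes were 36.3% and 33.0%. This comparison uses the same passage 6 libraries.

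**Figure D3:**
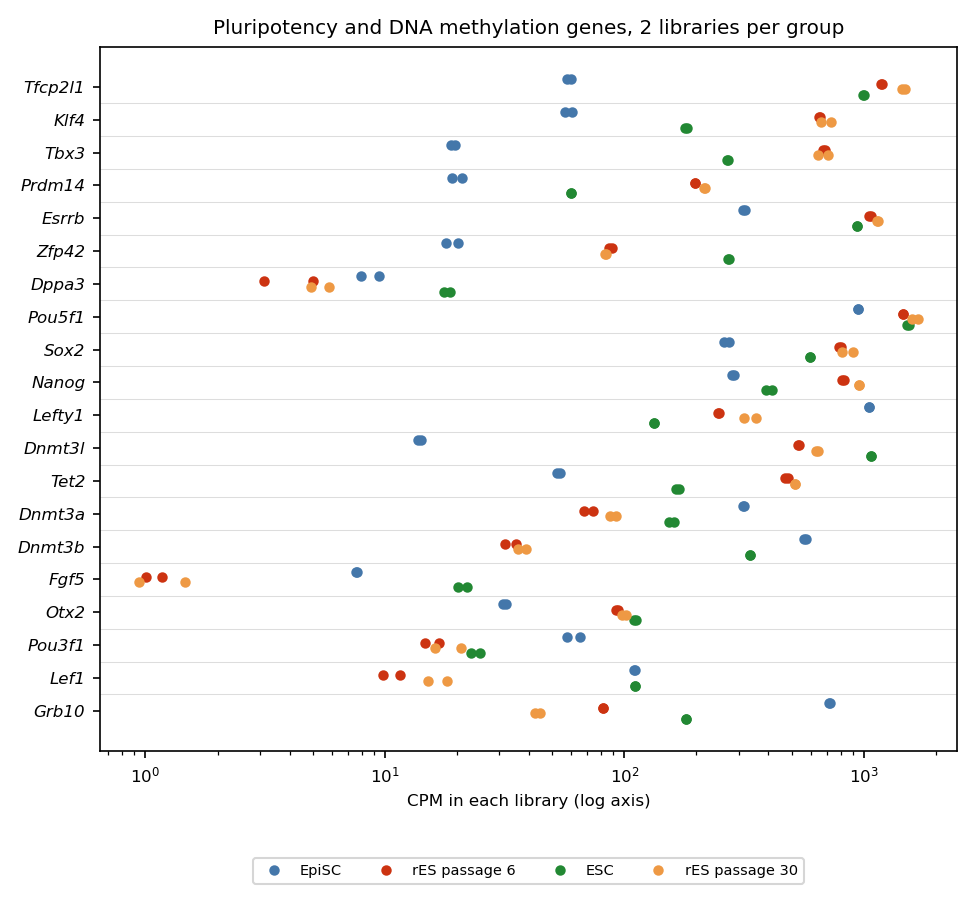
CPM of each library (log axis) for 20 pluripotency and DNA methylation genes in EpiSC (blue), passage 6 (red), passage 30 (orange) and ESC (green), 2 points per group. Passage 6 lies above EpiSC for Tfcp2l1, Klf4, Tbx3 and Dnmt3l and below it for Dnmt3b, Dppa3 and Grb10, and passage 6 lies close to passage 30 for most genes.

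The shared core was also higher, by smaller amounts. Of 14 core genes, 10 rose, 2 fell and 2 did not pass the test, with a median of 0.66. Pou5f1 (Oct4) stood at 1457 and 1458 CPM at passage 6 and 949.9 and 950.3 CPM in EpiSC, a rise of 0.62 ± 0.04. Sox2 stood at 804 and 791 CPM against 274 and 261 CPM (1.58 ± 0.04) and Nanog at 811 and 828 CPM against 288 and 282 CPM (1.52 ± 0.04). Nanog was thus higher than in EpiSC and, with ESC at 414 and 391 CPM, also higher than in ESC (1.03 ± 0.04). Dppa2, a chromatin factor of early embryos, rose by 3.66 ± 0.08. The 2 core genes that fell were the RNA-binding gene Lin28a (191 and 189 CPM against 505 and 502 CPM, -1.40 ± 0.04) and Utf1 (-0.97 ± 0.05). With total counts, 4 core genes were lower.

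Primed genes were mostly lower, with some that went the other way. Of 15, 11 fell and 4 rose (median -1.91). Against ESC, 11 of the 15 were also lower at passage 6 and 3 higher. Lef1, a Wnt effector, stood at 11.5 and 9.83 CPM at passage 6 and 110.0 and 111 CPM in EpiSC, and Grb10, an imprinted adaptor of growth factor receptors, at 81.2 and 81.1 CPM against 714 and 724 CPM. The Wnt receptor gene Fzd2 stood at 16.4 and 16.3 CPM against 129.8 and 124 CPM. All 3 were several fold lower in both reverted libraries, by -3.38 ± 0.08, -3.15 ± 0.05 and -2.95 ± 0.07. Fgf5, the classical marker of the primed epiblast, was low in EpiSC itself at 7.55 and 7.68 CPM and fell to 1.01 and 1.17 CPM, while ESC held 22 and 20.2 CPM. ESC also held more Otx2 than EpiSC (112 and 110 CPM in ESC) and about as much Lef1 (110.4 and 110.6 CPM in ESC). The EpiSC label thus rests here on other genes. Among them, Grb10 (181 and 181 CPM in ESC) and Dnmt3b (336 and 334 CPM in ESC) were higher in EpiSC than in ESC. Pou3f1 (Oct6) fell by 1.96 on the log2 scale. Otx2, a factor of the early primed state, rose from 31.3 and 31.9 CPM to 94.2 and 92.6 CPM (1.56 ± 0.06), and so did the ETS factor gene Etv4 (1.46 ± 0.05) and the Wnt modulator gene Sfrp2 (1.53 ± 0.07).

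Many genes of the germ layers that follow the primed state were lower in reverted cells than in EpiSC. In the neuroectoderm list 9 of 11 genes fell and 2 did not pass the test, with a median of -2.14. Sox11 stood at 8.14 and 7.71 CPM at passage 6 and 188 and 176 CPM in EpiSC (-4.52 ± 0.08). Sox1, an early neural factor, stood at 7.95 and 9.92 CPM against 97.2 and 93.5 CPM, and the intermediate filament gene Nes at 76.9 and 75.4 CPM against 360.0 and 366 CPM. The reverted libraries were lower in each case without overlap. ESC also had a low median for this list, -2.45 over EpiSC. Against ESC, 5 of the 11 were lower at passage 6 and 3 higher, where the shares over all genes were 33.0% and 36.3%. Of 10 primitive streak and mesoderm genes tested, 6 fell and 1 rose. ESC did not share this fall as a list, with a median of 0.09 over EpiSC. Against ESC, 7 of the 10 were lower at passage 6 and 2 higher (median -2.95). The streak ligand genes Wnt8a (30.6 and 29.4 CPM in EpiSC, 0.671 and 0.563 CPM at passage 6), Wnt3 (-6.59 ± 0.44) and Fgf8 (-4.45 ± 0.36) fell, and the organizer gene Gsc rose from 0.49 and 0.372 CPM to 5.65 and 6.06 CPM (3.76 ± 0.25).

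Epithelial genes fell as well, in 11 of 14 (median -1.70). Esrp1, a splicing factor of epithelial cells, stood at 0.671 and 0.953 CPM at passage 6 and 42.8 and 42.4 CPM in EpiSC (-5.70 ± 0.16), and at 84.4 and 85.9 CPM in ESC. The tight junction gene Cldn6 stood at 3.45 and 3.51 CPM against 70.7 and 72.2 CPM and the adhesion gene Epcam at 83.9 and 86.7 CPM against 287 and 279 CPM. Cldn6 stood at 53.8 and 60.1 CPM in ESC, so for both Esrp1 and Cldn6 the reverted libraries were the lowest of the 3 groups. Cldn4 was the 1 epithelial gene that rose (2.32 ± 0.06), and E-cadherin, Cdh1, had a log2 fold change of 0.01 ± 0.04 that did not pass the test (chosen after its value was seen). Against ESC, 13 of 14 epithelial genes were lower at passage 6.

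Genes that act on DNA methylation changed in both directions. Dnmt3b, a de novo methyltransferase, stood at 31.8 and 35.1 CPM at passage 6 and 561 and 573 CPM in EpiSC. Dnmt3a, the other de novo enzyme, stood at 73.8 and 67.9 CPM against 315 and 313 CPM, a fall of 2.15 on the log2 scale. Dnmt3l, their catalytically inactive cofactor, stood at 539 and 533 CPM against 13.7 and 14.2 CPM (5.26 ± 0.05, edgeR adjusted p = 3.2e-45). Against EpiSC the 2 enzymes were thus lower and their cofactor higher. Tet2, a dioxygenase that starts demethylation, rose from 53.8 and 52.4 CPM to 469.6 and 483 CPM, and Zfp57, which protects imprinted methylation, from 95.6 and 96.3 CPM to 763 and 746 CPM. Tet3, a dioxygenase of the same family as Tet2, fell (-0.31 ± 0.07). In ESC, Dnmt3b stood at 336 and 334 CPM and Dnmt3a at 161 and 154 CPM, so passage 6 was below both EpiSC and ESC for both genes (-3.32 ± 0.05 and -1.15 ± 0.05 against ESC). Over the 10 genes of the list, 6 rose and 4 fell.

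Kmt2a, the gene of the enzyme that MM401 inhibits, hardly differed in RNA. It stood at 155 and 165 CPM at passage 6 and 140.4 and 155 CPM in EpiSC, a log2 fold change of 0.11 ± 0.05 (edgeR adjusted p = 0.0284). The call was lost with RLE size factors (adjusted p = 0.176) and the sign turned with total counts (-0.0124, adjusted p = 0.818), so no direction is given for it. In the list of the MLL and SET1 complexes 13 of 17 genes were called higher, Kmt2a itself counted among them, and 2 lower (median 0.32). Wdr5, the subunit through which MM401 is known to act on the complex, stood at 471 and 468 CPM against 209 and 207 CPM (1.18 ± 0.04). Kmt2c (Mll3), which acts at enhancers, stood at 287 and 296 CPM against 57.8 and 60.2 CPM (2.31 ± 0.04), and Setd1b rose by 1.27 ± 0.05. The chromatin reader gene Psip1 (-0.90 ± 0.04) and Cxxc1 (-0.30 ± 0.06) fell. Of 11 genes of Polycomb repressive complex 2, which methylates lysine 27 of histone H3, 7 rose and 1 fell (2 with total counts or RLE size factors). The accessory subunit genes Mtf2 (1.62 ± 0.04) and Jarid2 (1.15 ± 0.04) and the core subunit gene Eed (1.28 ± 0.04) rose, and the catalytic subunit gene Ezh2 fell by 0.23 on the log2 scale.

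Germ line genes formed the list with the next highest median. Many of these genes act in meiosis or in silencing of transposons by small RNAs, and several are known to carry E-boxes in their promoters, the sequence bound by Myc with Max and by the repressor Mga with Max. Of 19 tested, 16 rose, 1 fell and 2 did not pass the test (median 2.59). The promoter windows below are from genes that rose and were picked because they hold the E-box CACGTG, shown in capitals. Other genes that rose, among them Dazl and Stra8, held none in the 250 bases upstream. The windows were taken 5′ to 3′ on the strand of the gene from the RefSeq promoter table of build GRCm38.p6, within 250 bases upstream of the start.

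Mael (chr1:166238919-166238994, minus strand): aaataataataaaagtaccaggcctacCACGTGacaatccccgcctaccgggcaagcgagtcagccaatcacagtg
Mov10l1 (chr15:88982744-88982796, plus strand): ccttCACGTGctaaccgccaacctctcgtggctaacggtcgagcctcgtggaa
Taf7l (chrX:134476491-134476579, minus strand): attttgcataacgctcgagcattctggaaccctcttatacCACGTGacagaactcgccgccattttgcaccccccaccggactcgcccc
Stk31 (chr6:49395444-49395532, plus strand): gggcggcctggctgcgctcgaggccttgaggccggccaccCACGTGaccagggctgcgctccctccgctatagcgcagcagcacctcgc
Sycp3 (chr10:88459483-88459586, plus strand): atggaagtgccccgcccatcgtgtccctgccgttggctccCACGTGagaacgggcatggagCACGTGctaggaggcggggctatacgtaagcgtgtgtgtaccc
Sycp1 (chr3:102936146-102936234, minus strand): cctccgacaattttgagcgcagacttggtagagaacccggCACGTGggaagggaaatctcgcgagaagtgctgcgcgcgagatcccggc
Slc25a31 (chr3:40708738-40708826, plus strand): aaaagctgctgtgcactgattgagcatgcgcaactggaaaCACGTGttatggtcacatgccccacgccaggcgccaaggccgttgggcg

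The table held promoters for 15 of the 16 germ line genes that rose. CACGTG, which reads the same on both strands, was found upstream in 11 of these 15 genes (73.3%). Over the whole germ line list, called or not, it was found in 11 of 18 genes with a promoter (61.1%). The same 11 genes make up both counts, so within the list CACGTG was found only in genes that rose. Too few listed genes with a promoter did not rise for a comparison. The same letters were found in 6.86% of all 27018 genes in the table, in 9.56% of genes tested, in 10.7% of genes called higher and in 8.95% of genes called lower. Among naive pluripotency genes that rose, 2 of 11 with a promoter held it (18.2%). TCAAGGTCA, an Esrrb-type element, and TTCCNGGAA, a Stat3-type element, were searched on both strands, where N is any base. Neither was found in the 18 germ line or 11 naive genes with a promoter. They were found in only 0.301% and 1.21% of genes tested, so their absence from lists this short says nothing about these genes. These matches describe letters in a short window, and binding was not measured.

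Several genes of the pathway that makes and uses piRNAs rose from low levels. Mael, a factor of transposon silencing, stood at 25.1 and 25.5 CPM at passage 6 and 2.08 and 0.991 CPM in EpiSC (4.03 ± 0.15, edgeR adjusted p = 3.8e-25). Ddx4 (Vasa), a germ cell RNA helicase, stood at 23.4 and 26.7 CPM against 1.63 and 1.61 CPM, and Piwil2, a Piwi protein, at 75.4 and 73.6 CPM against 6.24 and 7.55 CPM. The reverted libraries were several fold above EpiSC for each gene. Dazl, an RNA-binding regulator of germ cells, stood at 91.8 and 95 CPM against 13.7 and 11.1 CPM, with ESC at 14.1 and 14 CPM. Dazl was therefore also higher than in ESC, by 2.74 ± 0.08. Chosen after their values were seen, the helicase gene Mov10l1 (19.8 and 18.2 CPM against 1.06 and 0.949 CPM), the testis transcription factor gene Taf7l (3.35 ± 0.22), Stk31 (2.75 ± 0.17) and the meiotic genes Sycp3 (2.65 ± 0.15), Sycp1 (1.73 ± 0.18) and Stra8 (3.20 ± 0.20) also rose. Nanos3, needed for primordial germ cell survival, was the 1 gene that fell (1.05 and 1.21 CPM against 1.67 and 2.23 CPM, -0.78 ± 0.28, edgeR adjusted p = 0.0123). That call was lost without passage 6 replicate 1 (adjusted p = 0.0799) and without EpiSC replicate 2 (adjusted p = 0.153). Against ESC, 13 of 19 germ line genes were higher and 4 lower.

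**Figure D4:**
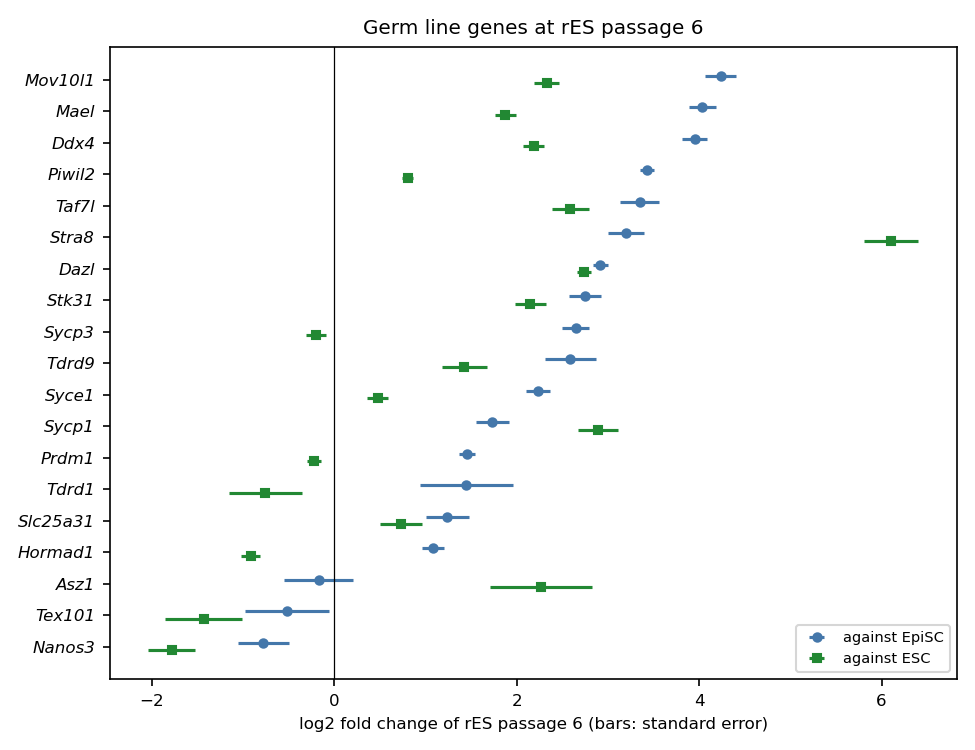
Log2 fold change of passage 6 for the 19 germ line genes tested, against EpiSC (blue circles) and against ESC (green squares), with bars of 1 standard error. Mov10l1, Mael and Ddx4 show the largest rises over EpiSC and Stra8 the largest over ESC; both comparisons use the same 2 passage 6 libraries.

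Genes of the 2-cell-like state, a rare state of naive cultures, were low in all groups but higher in reverted cells. Of 7 tested, 6 rose (median 2.36). Dux, the factor that starts this state, stood at 2.11 and 1.86 CPM at passage 6 and 0.204 and 0.124 CPM in EpiSC, and Zscan4d, a telomere factor, at 5.32 and 6.93 CPM against 1.71 and 1.16 CPM. Zfp352 rose by 2.51 ± 0.32. Both reverted libraries lay above both EpiSC libraries for these genes. The Zscan4 genes and Dux are near-identical copies whose reads the counting could share or drop, so their split among copies is uncertain.

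Most primitive endoderm genes, a lineage of the yolk sac, were higher in reverted cells. In the primitive endoderm list 14 of 17 genes rose and 1 fell (median 1.04). Gata6, a factor that sets up this lineage, stood at 34.6 and 34.7 CPM at passage 6 and 2.2 and 1.65 CPM in EpiSC (4.17 ± 0.14), close to the 32.3 and 29.2 CPM of ESC. Hnf4a rose from 0.245 and 0.289 CPM to 4.6 and 5.15 CPM, and the laminin gene Lama1 from 20.4 and 20.9 CPM to 93.7 and 97.1 CPM, far below the 1205 and 1207 CPM of ESC. Against ESC, 16 of 17 of these genes were lower at passage 6. The endocytic adaptor gene Dab2 fell (-1.04 ± 0.06). In the trophoblast list 4 of 10 rose, a share near the 38.7% of all genes tested, among them Tead4 (63.9 and 61.3 CPM against 6.94 and 8.21 CPM) and Ascl2 (3.04 ± 0.21), and Plac1 fell (-3.27 ± 0.69).

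Markers of fibroblasts, the usual feeder cells, differed between the groups. Their summed level was 3098 and 3048 CPM at passage 6, 4836 and 4885 CPM in EpiSC and 1425 and 1422 CPM at passage 30. Of 20 markers, 12 fell against EpiSC and 4 rose, and none was at 0 in either group. Collagen gene Col3a1 stood at 93.2 and 88.7 CPM against 440.0 and 439 CPM, and the proteoglycan genes Dcn (90.3 and 87.1 CPM against 251 and 246 CPM) and Lum (-1.90 ± 0.06) were also lower. Lox, which cross-links collagen, went the other way (424 and 426 CPM against 196 and 191 CPM, 1.13 ± 0.04), as did S100a4 (1.11 ± 0.08) and Thy1 (0.62 ± 0.06). In the mesenchymal list 5 of 11 genes rose (45.5%) and 4 fell (36.4%), against 38.7% and 35.1% over all genes tested. The matrix enzyme gene Mmp2 (-1.49 ± 0.04) and N-cadherin, Cdh2 (-2.83 ± 0.09), were lower and Cdh11 (0.70 ± 0.06) higher. The part of feeder RNA in the mesenchymal, imprinted and Hox differences was not tested.

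Hox genes, which pattern the body axis and are classical targets of Mll1, were more often higher than lower. Of 37 tested, 19 rose, 3 fell and 15 did not pass the test (median 0.59). Hoxc13 stood at 15.6 and 14 CPM at passage 6, 0.857 and 0.784 CPM in EpiSC and 16.2 and 17.1 CPM in ESC. Hoxc12 rose from 0.163 and 0.0413 CPM to 4.31 and 4.59 CPM and Hoxd9 from 1.06 and 0.743 CPM to 5.8 and 6.06 CPM. These posterior genes were higher in both reverted libraries. Hoxb13 was the clearest exception, at 0.719 and 1.65 CPM against 9.55 and 11.8 CPM (-3.15 ± 0.27), and Hoxb3 (-0.81 ± 0.16) and Hoxa2 (-1.90 ± 0.51) fell too. Among imprinted genes 14 of 27 fell and 6 rose. The growth inhibitor gene Cdkn1c stood at 8.57 and 9.62 CPM against 104 and 103 CPM, and the noncoding H19 at 258 and 253 CPM against 730.4 and 728 CPM. Gnas fell by 1.70 on the log2 scale. Peg10, derived from a retrotransposon, stood at 600.2 and 605 CPM against 137 and 129.6 CPM and was higher in both reverted libraries, as were Zrsr1 (2.23 ± 0.07) and Dlk1 (1.33 ± 0.09).

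The LIF pathway was mixed at the RNA level. Of 13 genes, 8 rose and 5 fell (median 0.38). The kinase genes Pim1 (290.0 and 286 CPM against 61.3 and 58.1 CPM) and Pim3 (426 and 426 CPM against 96.9 and 91.3 CPM), both known Stat3 targets, rose by 2.27 ± 0.05 and 2.18 ± 0.04. Socs3, a feedback inhibitor that is also a Stat3 target, fell from 207 and 200.4 CPM to 89.2 and 92 CPM (-1.17 ± 0.05). Stat3 itself (-0.35 ± 0.04) and the phosphatase gene Ptpn11 (-0.85 ± 0.04) fell. Of 15 genes of the FGF and ERK pathway, 7 rose and 7 fell (46.7% each, against 38.7% and 35.1% over all genes tested). The receptor gene Fgfr1 stood at 146 and 141 CPM against 298 and 301 CPM and the inhibitor gene Il17rd at 41.2 and 40.5 CPM against 164 and 167 CPM, both lower. The feedback genes Dusp4 (77.8 and 77.7 CPM against 19.9 and 20.7 CPM) and Spry4 (110.3 and 111 CPM against 37.4 and 34.8 CPM) were higher. Spred1 fell (-0.87 ± 0.05).

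Nodal pathway genes were also divided, with 8 of 20 higher (40%) and 10 lower (50%). Over all genes tested 38.7% were higher and 35.1% lower. Lefty1, a Nodal inhibitor and target, stood at 247 and 248 CPM at passage 6, 1049.6 and 1055 CPM in EpiSC and 133 and 133 CPM in ESC. Pcsk6, a protease that processes Nodal, stood at 267 and 260.0 CPM against 14.5 and 14.4 CPM (4.19 ± 0.05, edgeR adjusted p = 2.1e-41). Lefty1 was thus lower and the processing enzyme higher in reverted cells. The activin subunit gene Inhba (2.16 ± 0.07) and the inhibitory Smad7 (1.53 ± 0.04) rose. In the BMP pathway 7 of 15 rose (46.7%) and 6 fell (40%). The ligand gene Bmp7 (22.7 and 22.7 CPM against 2.12 and 2.11 CPM), the inhibitory Smad6 (3.00 ± 0.12) and the target Id4 (2.51 ± 0.09) were higher. The antagonist gene Nog (-2.49 ± 0.21), Smad5 (-1.15 ± 0.05) and the receptor gene Bmpr1a (-0.43 ± 0.05) fell. In the Wnt pathway 6 of 16 rose (37.5%) and 4 fell (25%), shares no larger than those over all genes. Porcn, which makes Wnt proteins secretable, was higher (2.06 ± 0.08). The repressor gene Tcf7l1 (-0.91 ± 0.05) and the target Nkd1 (-1.83 ± 0.20) were lower.

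Immediate early genes were lower in reverted cells. In the list of AP-1 and related genes 9 of 12 fell (median -1.05). Fos stood at 39.8 and 39 CPM at passage 6 and 295 and 293 CPM in EpiSC, Fosb at 9.87 and 11.1 CPM against 179 and 171 CPM and Egr1 at 208 and 207 CPM against 481 and 472 CPM. ESC were lower still for these, with Fos at 7.23 and 7.39 CPM. Jun fell by 1.97 on the log2 scale. Dusp1 (0.61 ± 0.05) and Fosl1 (1.14 ± 0.18) rose. Fosl2 had a log2 fold change of 0.12 ± 0.05 whose sign turned with total counts (-0.00975), so it is given no direction.

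Glycolysis genes rose nearly throughout, in 21 of 24 (median 0.99). Eno2, an enolase, stood at 158 and 153 CPM at passage 6 and 14.9 and 15.9 CPM in EpiSC, the phosphofructokinase gene Pfkp at 617 and 610.4 CPM against 107 and 104 CPM, and hexokinase Hk2 at 649 and 652 CPM against 169 and 172 CPM. The glucose transporter gene Slc2a3 rose by 1.63 ± 0.03. Both reverted libraries were above both EpiSC libraries for these genes. The monocarboxylate transporter gene Slc16a1 (-0.41 ± 0.04) and Eno3 (-0.84 ± 0.11) fell. Nuclear-encoded respiratory chain genes had no common direction: of 80, 32 rose and 22 fell (median 0.05), and with total counts 19 rose and 34 fell. Cox7b (1.28 ± 0.05), Cox5a (0.95 ± 0.04) and Cox7a1 (1.93 ± 0.10) were among those higher.

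Threonine breakdown, on which naive mouse cells depend, stood out among the amino acid genes. Tdh, threonine dehydrogenase, stood at 391 and 387 CPM at passage 6, 44.2 and 45.5 CPM in EpiSC and 489 and 473 CPM in ESC (3.12 ± 0.04, edgeR adjusted p = 2.9e-40). Gcat, the next enzyme, stood at 151 and 153 CPM against 31.5 and 30.5 CPM, and the glycine cleavage gene Gcsh rose by 1.08 ± 0.05. The remaining genes of the list of 12 were divided, for a total of 5 higher and 6 lower. In the list of the integrated stress response 7 of 19 rose (36.8%) and 10 fell (52.6%), against 38.7% and 35.1% over all genes tested. Cth, of cysteine synthesis, stood at 137 and 134 CPM against 18.6 and 20.8 CPM and Asns, asparagine synthetase, at 711 and 699.6 CPM against 244 and 248 CPM, whereas the serine synthesis gene Psat1 fell from 377 and 373 CPM to 156 and 159 CPM. Cholesterol synthesis genes were evenly divided (10 higher and 11 lower of 23), with the X-linked Ebp (1.08 ± 0.06) and Nsdhl (0.74 ± 0.05) higher and Dhcr7 (-0.97 ± 0.04) lower. Against ESC, 21 of the 23 were higher at passage 6.

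Cell cycle genes shifted by small amounts. Mitosis genes rose in 11 of 15 (median 0.31), as with Cdk1 at 325 and 329 CPM against 222 and 223 CPM and the checkpoint kinase gene Bub1 (0.71 ± 0.05). Aurkb (-0.58 ± 0.04) and Top2a (-0.23 ± 0.03) fell, and with total counts 4 mitosis genes were lower. Replication genes rose in 11 of 18, with X-linked Pola1 the furthest (234 and 241 CPM against 79.5 and 82.5 CPM, 1.55 ± 0.04), and the licensing factor gene Cdc6 fell (-0.89 ± 0.05). Replication genes that were lower numbered 3, and 5 with total counts. Of 16 genes of G1 control 6 rose and 6 fell (37.5% each), near the 38.7% and 35.1% over all genes tested. The cyclin gene Ccnd3 stood at 466 and 464 CPM against 164 and 158 CPM and Cdk6 at 2.16 and 2.77 CPM against 22.8 and 24.1 CPM, in opposite directions.

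Antigen presentation genes of class II were among the low transcripts that rose. H2-Eb1 stood at 46.1 and 51 CPM at passage 6 and 0.653 and 0.537 CPM in EpiSC, H2-Ab1 at 13.2 and 13 CPM against 2.53 and 2.06 CPM and the invariant chain gene Cd74 at 4.41 and 4.16 CPM against 0.898 and 0.949 CPM. Ciita, the master activator of class II genes, rose by 3.15 ± 0.80 (chosen after its value was seen). Of 10 tested 5 rose and 2 fell, the fallers being H2-DMa (-0.87 ± 0.18) and H2-DMb2. The H2-DMb2 call (-1.34 ± 0.56, adjusted p = 0.0311) was lost with DESeq2 and without any 1 of 3 libraries (passage 6 replicates 1 and 2 and EpiSC replicate 2). In the interferon and class I list 5 of 19 rose (26.3%) and 7 fell (36.8%), against 38.7% and 35.1% over all genes tested. Ifitm1 (1.85 ± 0.06) and Ifitm3 (1.43 ± 0.05) were higher and the peptide transporter gene Tap1 (-1.60 ± 0.11) and Bst2 (-1.25 ± 0.06) lower.

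The genotype label of the reverted line names a deletion at Tsix, the antisense regulator of Xist, and Xist coats and silences the inactive X chromosome. Tsix stood at 0.91 and 1.04 CPM at passage 6, 0.163 and 0.537 CPM in EpiSC and 1.4 and 1.26 CPM in ESC. The rise over EpiSC (1.48 ± 0.47, edgeR adjusted p = 0.0048) was lost without EpiSC replicate 1 (adjusted p = 0.134). Neither the deleted part nor the strand of the libraries is given in the sources used, so Tsix reads cannot be told apart from Xist reads and these counts do not check the label. Xist stood at 86.2 and 87.7 CPM at passage 6, 620.3 and 624 CPM in EpiSC, 30.2 and 31.6 CPM in ESC and 48.2 and 50.1 CPM at passage 30. It was therefore lower in the reverted line than in EpiSC (-2.84 ± 0.09) and higher than in ESC (edgeR adjusted p = 1.8e-07). The neighbouring noncoding genes Ftx (2.49 and 1.95 CPM against 9.26 and 9.45 CPM) and Jpx (3 counts against 100, a ratio of 30.1 with a counting interval of 10.0 to 148) also fell, and Rlim, an activator of Xist, rose (0.50 ± 0.04).

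X-linked genes as a whole were shifted upward. Of 608 tested, 313 were higher and 156 lower, with a median log2 fold change of 0.34. The noncoding AU015836 stood at 349 and 347 CPM at passage 6, 9.55 and 9.62 CPM in EpiSC and 16.5 and 14.3 CPM in ESC, and Mcf2, a guanine nucleotide exchange factor, at 189 and 196 CPM against 5.1 and 4.62 CPM. The creatine transporter gene Slc6a8 rose by 2.90 ± 0.04. The kinase gene Pim2 (20.8 and 20 CPM against 233 and 234 CPM), Tmem47 (17.4 and 16.4 CPM against 135 and 135 CPM) and Sh3bgrl (-1.65 ± 0.06) went the other way. Against ESC the X median was 0.523, and ESC itself had an X median of -0.227 against EpiSC. The X median lay above that of all genes in each of 4 bins of genes by GC content, by 0.235 to 0.774. How many X chromosomes each line carries is not stated in the labels, and its part in this shift was not tested.

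Among autosomes, chromosomes 11 and 3 were shifted downward. On chromosome 11, 640 of 1332 genes were lower and 406 higher (median -0.215), and on chromosome 3, 350 of 776 were lower and 251 higher (median -0.139). The other autosomes had medians between -0.053 and 0.113. Chromosome 11 was also lower over the same EpiSC libraries in passage 30 (-0.266), ESC (-0.297), day 3 (-0.246) and P2 (-0.213), while passage 6 against ESC gave 0.0976. All these comparisons with EpiSC share the 2 EpiSC libraries. Within the 4 GC bins, the chromosome 11 median differed from that of all genes by -0.286 to -0.213 and the chromosome 3 median by -0.271 to -0.0188. Chromosome number in the EpiSC line was not tested.

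**Figure D5:**
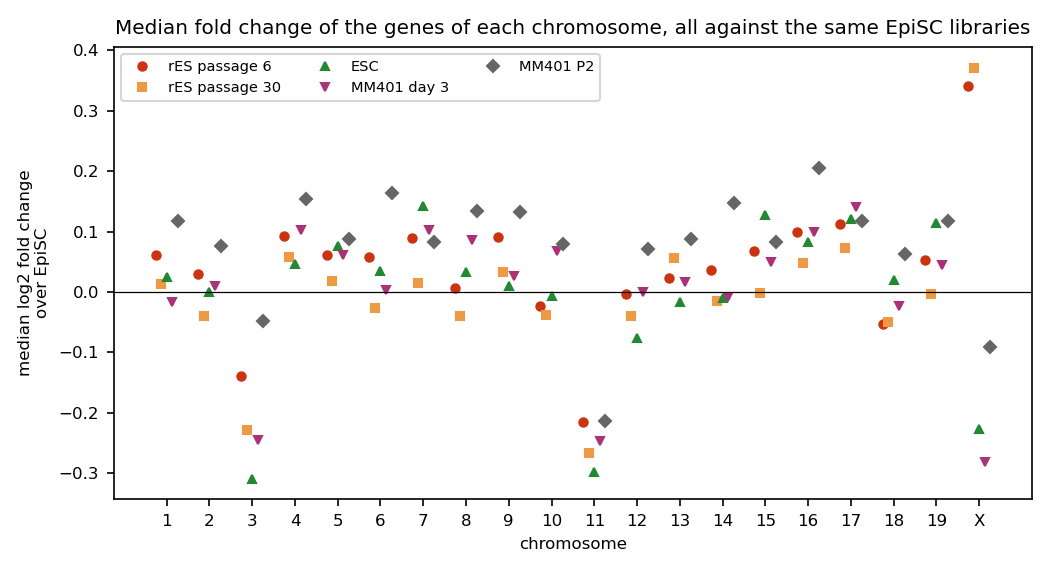
Median log2 fold change over EpiSC (vertical axis) of the genes of each chromosome (horizontal axis) for passage 6, passage 30, ESC, day 3 and P2, all against the same 2 EpiSC libraries. Chromosomes 3 and 11 lie below 0 in each group, and X lies above 0 in the 2 reverted groups and below 0 in the others.

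Much of the passage 6 state was close to that of passage 30. Against passage 30, 2339 genes (14.4%) were higher at passage 6 and 1828 (11.3%) lower, far fewer than against EpiSC, and the split turned to 2074 higher and 2463 lower with RLE size factors and to 2660 and 1330 with total counts. Naive pluripotency genes were lower at passage 6 in 10 of 19, by small amounts in the genes given here. Tfcp2l1, at 1444 and 1482 CPM at passage 30, differed by -0.31 ± 0.04 (edgeR adjusted p = 1.3e-08), and Dnmt3l, at 643 and 631 CPM, by -0.25 ± 0.03. All 20 fibroblast markers were higher at passage 6 than at passage 30, with a median of 1.03, and so were 10 of 11 mesenchymal, 9 of 12 AP-1 and 15 of 37 Hox genes. Fosb, at 2.43 and 2.09 CPM at passage 30, was 2.21 ± 0.17 higher at passage 6, and Grb10 0.90 ± 0.05 higher. The part of feeder RNA in these differences was not tested.

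Passage 6 also differed from the treated cells at P2, with 5771 genes (35.5%) higher and 6085 (37.5%) lower. The P2 libraries were deeper and held more fibroblast markers, with a summed level of 16997 and 16700.0 CPM, whose part in the differences below was not tested. The title of the second P2 library reads P2b, and whether both come from 1 culture is not stated. Of the 19 naive genes, 14 were higher at passage 6 than at P2 and 4 lower. Dnmt3l was at 30.5 and 31.3 CPM at P2, between EpiSC and passage 6, whereas Dnmt3b, at 25.7 and 25.1 CPM, was below both. Zfp42 was above its passage 6 level, with 206 and 207 CPM at P2. Of the 15 mitosis genes 15 were higher at passage 6, and of the 20 fibroblast markers 19 and of the 37 Hox genes 29 were lower.

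Only 3 genes were at least 2-fold higher at passage 6 than in each of the 6 other groups (0.0185% of genes tested), and 0 were at least 2-fold lower than in each by edgeR's quasi-likelihood test. All 3 had levels below 10 CPM and are named after their values were seen. Sprr1a, of the cornified envelope of skin, stood at 6.04 and 6.41 CPM at passage 6, 1.1 and 1.2 CPM in EpiSC and 2.05 and 3.11 CPM at passage 30. The orphan receptor gene Gpr149 stood at 5.7 and 6.02 CPM, 1.06 and 1.03 CPM and 1.92 and 2.97 CPM. Kprp, a keratinocyte gene, had 47 counts at passage 6 and 0 in EpiSC, at least 17.4-fold higher. All 3 lie on chromosome 3, which holds 776 of the 16247 genes tested. For 3 genes at low levels nothing is drawn from this position. Lower than in each other group were 4 genes at an unadjusted p under 0.05, and 1, 3 and 1 genes with RLE size factors, without a filter on low counts and with DESeq2. The genes higher than in each numbered 6 at an unadjusted p under 0.05, and 3, 2 and 2 under the same 3 alternatives.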

How the data were processed

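Per the labels' protocols, RNA was isolated with an RNeasy kit, treated with DNase, and made into Illumina TruSeq libraries for single-end sequencing. The authors deposited raw read counts for 24015 gene symbols, from which all values here were computed. TopHat2, Subread, DESeq and the build mm9 are named, with no version or role, in the submitters' processing notes. Strand and the handling of multi-mapped reads are not given there. Not used were 2 columns headed 12FmutEpi, which match no sample label. Whether they hold EpiSC of the genotype of the reverted line is not stated. The 27 symbols read as dates (0.254% of a library's counts or less) are not named.

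Genes were filtered with filterByExpr and scaled with TMM. The test was edgeR 4.0.16's quasi-likelihood F test (robust, two-sided, R 4.3.3), fitted to the 14 libraries with a mean for each group, so that groups share 1 estimate of spread. A gene was called at a Benjamini-Hochberg adjusted p under 0.05, within each comparison. The SE is the log2 fold change's size over the square root of F. Intervals and the floor of 3 counts over a group cover counting error only. The day 3 and P2 libraries held 74952496 to 116086115 counts and the others 20831588 to 23677089.

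The comparison, the gene lists and the naming rule were chosen with earlier results of these data known, and lists were given no test. Genes are named by this rule: a panel of 20 markers, the 10 called genes that rose most and the 10 that fell most with a group mean of 10 CPM or more, and in each list the 4 called genes with the lowest adjusted p plus at most 3 called against the list's majority direction. Genes set apart from all 6 other groups were to be named from 10 CPM. Any other gene is marked. Some genes that meet the rule are not reported here. Chromosomes came by symbol from a RefSeq table (23830 symbols matched, 99.2%), and promoters from RefSeq on GRCm38.p6, so no coordinate is on mm9. GC content came from GENCODE M21 transcripts for 15465 genes (95.2%). The pipeline was tested on simulated data (15814 genes, 50 changed per fold size), where 5.16% of calls were false. Neither that share nor the shares recovered need hold for the data, in which most genes were called. As alternatives, RLE size factors, unscaled totals, no filter, DESeq2 1.42.0, a replicate block, the 4 libraries alone and each library left out were tried. Fits without the deeper libraries and without Rn45s were added after the data were seen.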

Additional observations from a re-analysis of the deposited data

How the results depend on the processing

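Over all alternatives, 120 of 128 counts of called genes stayed within 1.5 times the value given, and 2485 of 2508 log2 fold changes of named genes kept their direction and their side of the threshold. Kmt2a (-0.0124) and Fosl2 (-0.00975) turned sign with total counts, which lower all log2 fold changes alike. Of the counts over gene lists 822 stayed within 1.5 times and 18 did not, all of them counts of lower genes except those of higher genes in the respiratory chain, primitive streak and X inactivation centre lists. Calls lost under at least 1 alternative were those of Kmt2a, Fosl2, H2-DMb2, Nanos3, Sp5 and Tsix. Genes lower at passage 6 than in each other group, 0 as given, numbered 1 with RLE size factors, 3 without a filter on low counts and 1 with DESeq2, and 1 without either passage 6 library. Genes lower at passage 6 than at passage 30 ranged from 1037 to 1681 when a library was left out, against 1828. They were 1037 without passage 6 replicate 1, 1077 without passage 6 replicate 2 and 1215 without passage 30 replicate 2, and a group left with 1 library is assumed to vary like the others. Leaving out the deeper day 3 and P2 libraries gave 6441 genes higher and 5849 lower than EpiSC. Depth limits the calls of genes with few counts, such as H2-DMb2, Sp5 and Tsix.

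With the replicate number as a block, 6281 genes were higher and 5705 lower than EpiSC, against 6283 and 5700 without it. The labels tie same-numbered libraries of the 2 groups to no common culture. Their deviations from the group means had a correlation of 0.0204 over genes. With 2 libraries in each group and scatter near counting error, that value cannot show whether they shared a batch. Under the block Fosl2 had an adjusted p of 0.0503 (edgeR), and no other named gene changed its call.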

Other observations

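Log2 fold changes of passage 6 over EpiSC had a Spearman rho of 0.049 with the GC content of the transcript and of -0.018 with its length, over 15465 genes that share the same libraries. Against ESC the rho with GC content was -0.1. Median GC content was 52.5% for genes tested on chromosome 11, 47.1% on chromosome 3 and 45.9% on chromosome X, against 50.1% for all. Promoters of germ line genes that rose held a median of 18 CpG sites in 250 bases, those of naive genes that rose 11 and those of all genes tested 14. Over the whole germ line list the median was 16.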
